A study of Homo sapiens with 4 samples.

Results

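The genes described here are the nucleoporins, which build the nuclear pore complex, and the receptors and Ran cycle proteins that move cargo through it. They were chosen by symbol: every gene name beginning with NUP and a digit, NUPL, KPNA, KPNB, IPO, XPO or TNPO, together with RAN, RANBP1, RANBP2, RANGAP1, RCC1, CSE1L, NDC1, AAAS, SEH1L, TPR and POM121. The rule found 56 of 11213 gene names, and 210 of 32551 transcripts. The cells were K562, a human chronic myelogenous leukaemia line with erythroid features that carries the BCR-ABL1 fusion. They were transduced with lentivirus carrying a control hairpin (shControl, labelled wild type, 2 libraries) or a hairpin against PHF8 (shPHF8, labelled PHF8 knockdown, 2 libraries), with polybrene at 5 µg/ml, and puromycin at 2 µg/ml from 72 hours selected the transduced cells in both groups. PHF8 removes methyl groups from histone H3 lysine 9 and histone H4 lysine 20. The labels do not settle whether shPHF8 libraries 1 and 2 carry the same hairpin. Separate cultures are not named either, so p-values measure only the spread between these libraries, which may be technical.

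The nuclear pore is a ringed channel through the nuclear envelope, lined by nucleoporins with phenylalanine-glycine (FG) repeats that transport receptors bind as they pass. Importins pick up cargo in the cytoplasm and release it in the nucleus when they bind RAN in its GTP form, whereas exportins bind cargo together with that form of RAN and release it in the cytoplasm when the GTP is hydrolysed. RCC1 loads RAN with GTP on chromatin, and RANGAP1 with RANBP1 and RANBP2 triggers the hydrolysis outside the nucleus. NUP98 and NUP214 are known partners in leukaemia gene fusions.

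Abundance is given in TPM (a length-corrected share of all listed transcripts), summed over the transcripts of each gene. PHF8 itself was at 25.9 and 22.5 TPM in the shControl libraries and at 6.06 and 6.42 TPM in the shPHF8 libraries, or 25.8% of the control mean. All 10 markers of K562 identity were listed, with a summed level of 8774 and 9333 TPM under shControl and 13882 and 13221 TPM under shPHF8. The globin genes HBG1, HBG2, HBE1 and HBZ made up most of that sum, and GATA1, in the same list, was at 339 and 343 TPM against 311 and 307 TPM. From a list of 12 granulocyte and monocyte genes 5 were present, at a sum of 143 and 161 TPM against 83.1 and 77.9 TPM, and MPO, ELANE, CD14, CSF1R, CSF3R, FCGR3A and S100A8 were not in the table. Of 9 lymphocyte markers 3 were listed, at 240 and 204 TPM against 107 and 100.4 TPM. Most of that sum was PTPRC, at 209 and 170 TPM against 91.2 and 89.4 TPM. Of 7 megakaryocyte markers 4 were listed, at 22.9 and 27.3 TPM against 49.99 and 52.3 TPM. Most of that difference lay in TUBB1, at 11.0 and 13.2 TPM against 35.4 and 34.9 TPM. ITGA2B was at 10.2 and 11.4 TPM against 13.0 and 15.7 TPM, and ITGB3 overlapped between the groups. Of 10 stromal and endothelial markers 2 were listed, at 9.88 and 13.0 TPM against 3.42 and 2.52 TPM. The lower sum lay in COL1A2, at 9.37 and 11.6 TPM against 1.79 and 1.65 TPM, while COL1A1 overlapped between the groups. The part of these shifts in the results below was not tested. In bulk RNA, fewer cells of a type and less RNA per cell cannot be told apart.

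The genes the results turn on most are shown first by the DNA at their start sites, because CSE1L, KPNA2 and KPNA3 were the receptor genes with lower values of smallest p and NUP214 was the gene with the smallest p among those with higher values. Each sequence runs from 250 bases before to 50 bases after the RefSeq start of the gene. Capitals mark matches on either strand to the core letters of known promoter elements. An E-box was searched as CACGTG. The CCAAT box is given by its own name. The core letters used for an ETS site, bound by a large family of transcription factors, were CCGGAAG. For the CHR element, which is known from promoters of cell cycle genes, the letters searched were TTTGAA. The GC box, bound by the SP family of factors, was searched as GGGCGG. E2F and NRF1 sites were searched as well and had no match in the sequences printed here. No match overlapped another in these 4 sequences.
CSE1L promoter, GRCh38.p14, chr20:49046062-49046361, plus strand: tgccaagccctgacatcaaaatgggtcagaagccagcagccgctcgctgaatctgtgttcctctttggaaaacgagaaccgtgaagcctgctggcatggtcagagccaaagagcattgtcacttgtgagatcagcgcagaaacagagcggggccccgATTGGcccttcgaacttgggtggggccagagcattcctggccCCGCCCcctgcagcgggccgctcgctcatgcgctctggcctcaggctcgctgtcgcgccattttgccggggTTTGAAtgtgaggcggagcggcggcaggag
KPNA2 promoter, GRCh38.p14, chr17:68035485-68035784, plus strand: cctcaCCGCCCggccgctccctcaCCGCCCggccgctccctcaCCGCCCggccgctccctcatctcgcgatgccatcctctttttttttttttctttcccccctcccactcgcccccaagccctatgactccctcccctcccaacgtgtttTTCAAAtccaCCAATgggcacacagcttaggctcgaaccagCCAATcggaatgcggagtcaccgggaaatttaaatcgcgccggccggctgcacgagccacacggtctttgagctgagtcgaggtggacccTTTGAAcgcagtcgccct
KPNA3 promoter, GRCh38.p14, chr13:49792633-49792932, minus strand: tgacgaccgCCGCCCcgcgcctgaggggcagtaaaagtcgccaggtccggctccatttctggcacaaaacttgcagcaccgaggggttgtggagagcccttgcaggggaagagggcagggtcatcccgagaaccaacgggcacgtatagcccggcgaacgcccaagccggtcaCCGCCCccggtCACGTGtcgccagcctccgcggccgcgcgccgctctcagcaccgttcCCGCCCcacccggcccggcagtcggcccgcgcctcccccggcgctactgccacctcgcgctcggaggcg
NUP214 promoter, GRCh38.p14, chr9:131125336-131125635, plus strand: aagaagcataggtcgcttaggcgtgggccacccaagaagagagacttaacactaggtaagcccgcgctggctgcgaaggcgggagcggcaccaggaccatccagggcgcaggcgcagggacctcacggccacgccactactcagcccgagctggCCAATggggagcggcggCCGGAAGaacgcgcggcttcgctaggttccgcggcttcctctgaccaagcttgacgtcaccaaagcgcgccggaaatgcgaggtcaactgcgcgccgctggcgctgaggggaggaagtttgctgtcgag

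KPNA2 had 7 matches in this window, namely 3 GC boxes, 2 CCAAT boxes and 2 CHR elements. CSE1L had 1 CCAAT box, 1 GC box and 1 CHR element, KPNA3 had 3 GC boxes and 1 E-box, and NUP214 had 1 CCAAT box and 1 ETS site. Most of the higher value of NUP214 lay in NUP214-009, described below. That transcript starts 64560 bases downstream of the full-length NUP214-001, so the window printed for NUP214 does not hold its start. RefSeq promoters were found for 49 of the 56 genes. Among them 32.7% held the ETS letters, against 10.7% of all 27305 promoters of this length and 21.4% of the 8515 that belong to genes tested here. The CHR letters were in 22.4% of the 49, in 15.4% of all promoters and in 9.47% of those of tested genes. For the CCAAT box the shares were 42.9%, 35.7% and 37.7%, for the E-box 14.3%, 7.43% and 10.7%, for the GC box 55.1%, 44.6% and 71.8%, for the E2F site 6.12%, 3.33% and 5.74%, and for the NRF1 site 6.12%, 1.36% and 2.44%. These shares describe letters in a window and carry no test.

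As a set, these genes reached an unadjusted p under 0.05 about as often as all genes tested. All 56 passed the filter of a mean of 1 TPM and were fitted with limma together with all 10972 genes tested. After Benjamini-Hochberg adjustment over all genes limma called 0 members and 0 genes in all, and the smallest adjusted p of a member was 0.0652, for CSE1L. At an unadjusted limma p under 0.05, 6 members were higher and 5 lower under shPHF8, which is 10.7% and 8.93% of the 56 against 9.90% and 12.1% of all genes tested. Both directions together gave 11 members, or 19.6%, against 22.0% of all genes. Both shPHF8 libraries lay above both controls in 18 members and below them in 13, against 26.0% and 29.3% of all genes, and together these were 55.4% of the members against 55.3% of all genes. The median log2 fold change (shPHF8 minus shControl, of log2(TPM + 1)) was 0.08, against -0.02 over all genes, and 35 of the 56 estimates lay within 0.2 of 0, as did 4702 of the 10972 over all genes. The summed level of all 56 genes was 7964 and 7696 TPM under shControl and 8136 and 8097 TPM under shPHF8, so their share of a library was 0.783% ± 0.0189 and 0.812% ± 0.00273 (SD, n = 2).

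**Figure D1:**
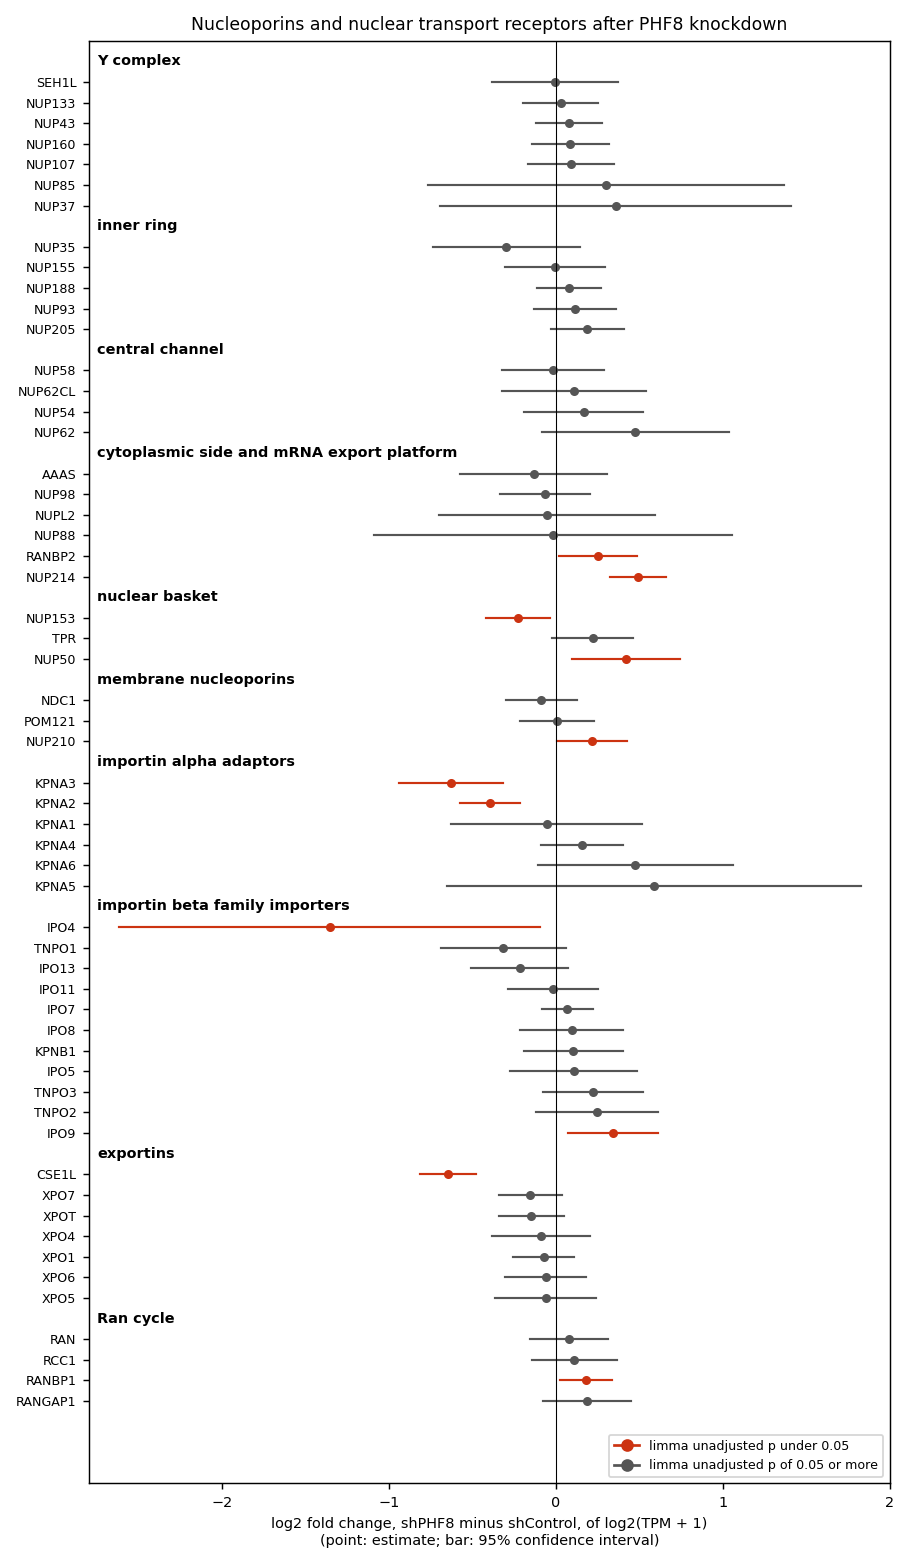
Log2 fold change of each of the 56 genes (x axis, shPHF8 minus shControl, of log2(TPM + 1)) by role, with points for estimates, bars for 95% confidence intervals and red for an unadjusted limma p under 0.05. Of the estimates 35 of 56 lie within 0.2 of 0, against 4702 of 10972 over all genes. All 7 exportins lie below 0, against 5708 of 10972 over all genes.

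The 11 members with an unadjusted p under 0.05 were CSE1L, KPNA3, KPNA2, NUP153 and IPO4, with lower values, and NUP214, NUP50, IPO9, RANBP2, NUP210 and RANBP1, with higher values. Of these, CSE1L, NUP214, KPNA2 and KPNA3 kept an unadjusted limma p under 0.05 under each of the 12 alternatives run. The others lost it under some alternatives: NUP50 under 3 of 12, IPO9 and RANBP1 under 4, NUP153 under 5, RANBP2 and NUP210 under 6, and IPO4 under 4 of 11. The number of members at p under 0.05 also moved, in both directions, when 1 library was left out. Such a fit has 1 sample in a group, and no share of all genes is given for it. Whether the move is particular to these genes is therefore not known.

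**Figure D2:**
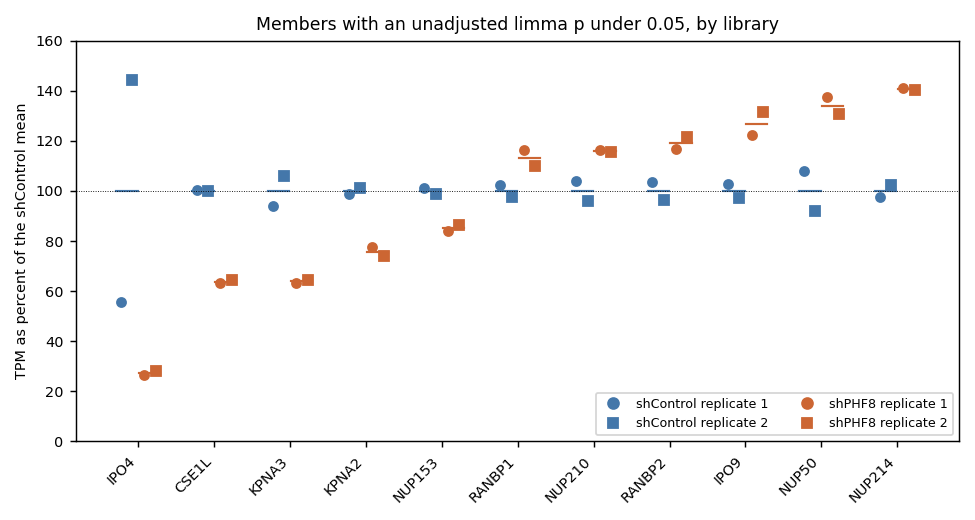
TPM of the 11 members with an unadjusted limma p under 0.05 in each library, as percent of the shControl mean of that gene (y axis); circles are replicate 1, squares replicate 2, and short lines group means. CSE1L and KPNA3 stand near 64% in both knockdown libraries and NUP214 near 141%, while the control values of IPO4 differ more than 2-fold from each other.

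Exportin estimates were below 0 in all 7 members, against 5708 of the 10972 genes tested, with CSE1L far below the rest. Estimates of 6 of the 7 lay within 0.2 of 0, and with 7 genes these counts are a description. CSE1L, the exportin that returns importin alpha to the cytoplasm, was at 292 and 291 TPM under shControl and at 184 and 187 TPM under shPHF8. The libraries of each group lay close together and the groups were far apart. Its mean was 63.7% of the control mean, with a log2 fold change of -0.65 ± 0.06 (SE) and a 95% confidence interval from -0.81 to -0.48 (limma, unadjusted p = 0.000365, Benjamini-Hochberg adjusted p = 0.0652). The most abundant exportin was XPOT, which carries tRNA, at 329 and 302 TPM against 283 and 285 TPM. Its groups did not overlap, and its estimate of -0.15 ± 0.07 (SE) had an interval that held 0. XPO1, the main exportin of proteins with leucine-rich signals and a drug target in blood cancers, was at 308 and 289 TPM under shControl and 279 and 288 TPM under shPHF8, an estimate of -0.07 with an interval from -0.26 to 0.11. XPO7, a broad exportin with a known part in erythroid maturation, was at 184 and 178 TPM against 160 and 165 TPM, again without overlap. XPO4 was at 31.6 and 31.9 TPM against 29.2 and 30.2 TPM, also without overlap. XPO5, the carrier of precursor microRNAs, and XPO6, the carrier of actin, had overlapping groups and estimates of -0.06 each.

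All 7 exportin estimates were below 0 under each of the 3 other scalings, and 5 of the 7 had groups that did not overlap, against 29.3% of all genes in that direction. Without shControl replicate 1 the estimate of 1 exportin was above 0. Summed over the family, exportins were at 1386 and 1303 TPM under shControl and 1148 and 1175 TPM under shPHF8, 0.864 times the control mean. Without CSE1L the sum was 1053 ± 57.4 TPM under shControl and 976 ± 16.9 TPM under shPHF8 (SD, n = 2), or 0.927 times. CSE1L made up 21.7% of exportin TPM under shControl and 16.0% under shPHF8.

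Importin alpha adaptors, which hold classical nuclear localization signals, did not share a direction. KPNA2, the most abundant of them and a gene whose level is known to follow proliferation, was at 277 and 285 TPM under shControl and at 218 and 208 TPM under shPHF8. All of its knockdown values lay below its control values, with a log2 fold change of -0.40 ± 0.07 (SE), an interval from -0.58 to -0.22 and an unadjusted limma p of 0.00333. KPNA3 was at 47.4 and 53.4 TPM against 32.0 and 32.5 TPM, 63.9% of the control mean, with a log2 fold change of -0.63 ± 0.11 (SE) and an unadjusted limma p of 0.00469. KPNA4, the closest relative of KPNA3, lay the other way, at 55.8 and 53.6 TPM against 61.1 and 61.1 TPM, with an interval that held 0. KPNA6 was at 49.6 and 33.9 TPM against 60.1 and 54.7 TPM, so its control libraries differed more from each other than its nearest values did between the groups. KPNA1 and KPNA5 overlapped between the groups and were the lowest of the family, with means of 16.6 and 10.8 TPM over all libraries.

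The family sum was 460 and 447 TPM under shControl and 395 and 392 TPM under shPHF8, and without KPNA2 it was 172 ± 14.3 and 180 ± 5.38 TPM (SD, n = 2). The share of KPNA2 in importin alpha TPM was 60.3% and 63.7% under shControl and 55.3% and 53.0% under shPHF8. KPNA2 and its recycling exportin CSE1L were thus at 75.8% and 63.7% of their control means. Of 23 G2/M genes tested, among which KPNA2 is not counted, 7 were higher and 1 lower at an unadjusted limma p under 0.05, or 34.8% against 22.0% of all genes, with a median log2 fold change of 0.18. The G2/M genes with the smallest p were NUSAP1, a spindle protein, at 153 ± 14.9 TPM under shControl and 207 ± 4.40 TPM under shPHF8, and AURKB, a mitotic kinase, at 63.5 ± 3.15 and 47.9 ± 0.146 TPM (SD, n = 2). Whether these changes bear on KPNA2 was not tested.

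**Figure D3:**
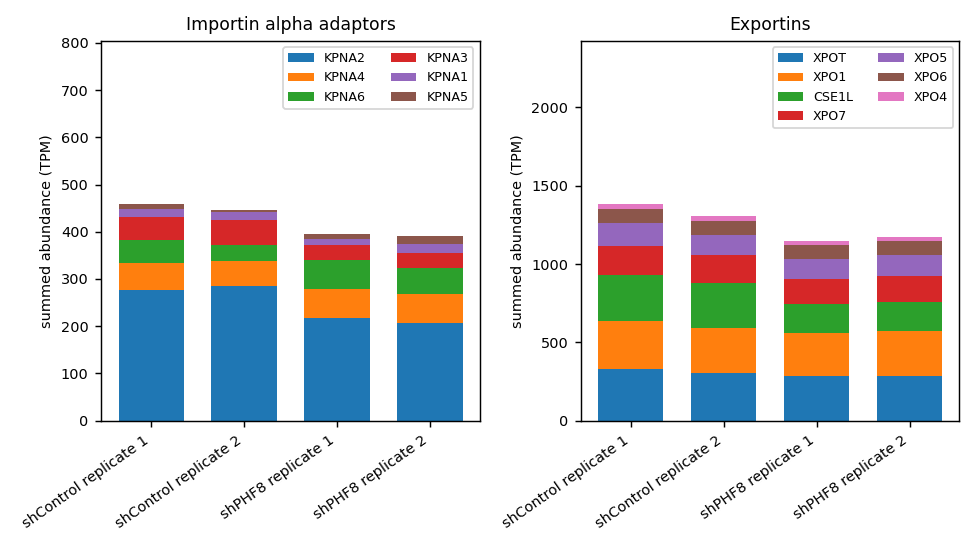
Summed TPM (y axis, from 0) of the importin alpha adaptors and of the exportins in each library, stacked by gene. Both stacks are lower in the shPHF8 libraries, at 392 to 395 TPM for importin alpha and 1148 to 1175 TPM for exportins, and KPNA2 and CSE1L take up most of the difference.

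Importers of the importin beta family had no common direction, with 7 estimates above 0 and 4 below. KPNB1, the partner of all importin alpha adaptors, was the most abundant, at 376 and 452 TPM under shControl and 456 and 431 TPM under shPHF8. Its groups overlapped, its interval ran from -0.19 to 0.40, and its estimate turned from 0.10 to -0.03 without shControl replicate 1. IPO7, an importer of ribosomal proteins and histones, was at 338 TPM in both control libraries and at 351 and 358 TPM under shPHF8, with an estimate of 0.07. IPO9, a histone importer, was at 54.5 and 51.3 TPM against 64.7 and 69.6 TPM, 127% of the control mean (limma, unadjusted p = 0.0250). TNPO3, which carries SR splicing factors, was at 208 and 174 TPM against 219 and 225 TPM, and TNPO1, which carries hnRNP proteins, was at 170 and 137 TPM against 117 and 128 TPM; both had intervals that held 0. IPO4 had the lowest level of all 56 genes, at 4.16 and 10.8 TPM under shControl and 1.98 and 2.11 TPM under shPHF8. Its control libraries differed more than 2-fold from each other, and its log2 fold change of -1.36 ± 0.46 (SE) became -0.76 without shControl replicate 2 and -1.95 without shControl replicate 1. IPO5, IPO8, IPO11 and TNPO2 had estimates from -0.02 to 0.25, and IPO13 was at 38.0 and 36.5 TPM against 32.4 and 31.3 TPM, with an interval that held 0.

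In the Ran cycle all 4 estimates were small and above 0, against 5264 of the 10972 genes tested above 0. RANBP1, which helps RANGAP1 to strip exportin complexes, was the most abundant of the 56 genes, at 968 and 921 TPM under shControl and 1098 and 1039 TPM under shPHF8. Its groups did not overlap, its mean was 113% of the control mean, and its unadjusted limma p was 0.0341. RANGAP1 was at 75.4 and 84.3 TPM against 91.7 and 90.1 TPM, without overlap and with an interval that held 0. The GTPase RAN, at 248 and 221 TPM against 241 and 252 TPM, and its exchange factor RCC1, at 211 and 192 TPM against 229 and 206 TPM, overlapped between the groups. Without shControl replicate 2 the estimate of 1 of the 4 was below 0.

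Among nucleoporins, the outer scaffold had no member past the unadjusted threshold. Of the 7 members of the Y complex, which forms the outer rings, none had an unadjusted limma p under 0.05, against 22.0% of all genes, and 1 did not overlap between the groups, against 55.3% of all genes. With 7 genes these counts are a description. Its most abundant member NUP160 was at 160 and 150 TPM under shControl and 158 and 172 TPM under shPHF8. NUP133 was at 94.1 and 88.4 TPM against 92.6 and 93.1 TPM, with an interval from -0.20 to 0.25, and NUP43 was the member without overlap, at 146 and 139 TPM against 151 and 150 TPM. NUP37 and NUP85 had the widest spread within groups, with NUP37 at 58.7 and 94.2 TPM under shControl and 129 and 70.8 TPM under shPHF8. SEH1L and NUP107 overlapped as well.

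The inner ring, which joins the scaffold to the channel, had no member with an unadjusted limma p under 0.05, against 22.0% of all genes. Of its 5 members 4 did not overlap between the groups (3 higher, 1 lower), against 55.3% of all genes. With 5 genes these counts are a description. NUP205, its most abundant member, was at 200 and 182 TPM against 214 and 221 TPM, with an estimate of 0.19 ± 0.08 (SE) and an interval that held 0. NUP188 was at 128 and 129 TPM against 137 and 135 TPM and NUP93 at 108 and 121 TPM against 122 and 125 TPM, neither with overlap, while NUP35 was lower, at 34.1 and 33.5 TPM against 30.9 and 24.1 TPM, and NUP155 overlapped. In the central channel of FG nucleoporins, NUP62 was at 87.4 and 59.8 TPM under shControl and 97.6 and 104 TPM under shPHF8, without overlap and with an interval from -0.09 to 1.04. NUP58 and NUP54 overlapped between the groups, as did NUP62CL, a gene related to NUP62 that was placed here by its name. NUP58, the most abundant, was at 92.3 and 108 TPM against 95.5 and 101 TPM.

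The clearest higher value lay on the cytoplasmic face. NUP214, the FG nucleoporin that anchors the mRNA export helicase and binds XPO1, was at 252 and 265 TPM under shControl and at 365 and 362 TPM under shPHF8. The groups were far apart, with the mean at 141% of control, a log2 fold change of 0.49 ± 0.06 (SE), an interval from 0.32 to 0.66 and a limma unadjusted p of 0.00115 (Benjamini-Hochberg adjusted p = 0.0730). K562 cells are known to carry a fusion of NUP214 with XKR3, whose reads the table does not separate from those of NUP214. RANBP2, the large nucleoporin of the cytoplasmic filaments, was at 96.6 and 89.6 TPM against 109 and 113 TPM, 119% of control (limma, unadjusted p = 0.0407), and is uncertain because the RGPD genes are near-identical copies of part of it. NUP88, the direct partner of NUP214, had groups that overlapped, at 79.0 and 49.1 TPM under shControl and 45.2 and 83.6 TPM under shPHF8. AAAS, NUP98 and NUPL2 overlapped too, with estimates from -0.14 to -0.05. Without NUP214 the 5 other members of this group summed to 363 ± 11.3 TPM under shControl and 369 ± 44.7 TPM under shPHF8 (SD, n = 2).

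The 3 members of the nuclear basket, which faces the nucleoplasm, did not share a direction. NUP153, which docks importins and holds NUP50 at the basket, was at 170 and 166 TPM under shControl and 141 and 145 TPM under shPHF8, with a log2 fold change of -0.23 ± 0.07 (SE) and an unadjusted limma p of 0.0285. NUP50, its mobile partner, which helps release cargo from importin alpha, lay the other way, at 58.1 and 49.6 TPM against 73.9 and 70.3 TPM, 134% of control (limma, unadjusted p = 0.0224). TPR, the filament protein of the basket and its most abundant member, was at 186 and 165 TPM against 200.5 and 207 TPM, with an interval from -0.02 to 0.46. Among membrane nucleoporins NUP210 was at 168 and 155 TPM against 188 and 187 TPM (limma, unadjusted p = 0.0473). NDC1, which anchors the pore in the membrane, was at 116 and 112 TPM against 105 and 109 TPM, and POM121, at 97.0 and 95.9 TPM against 99.7 and 94.0 TPM, overlapped; POM121C is a near-identical copy, so the value of POM121 is uncertain.

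The gene sums cover transcripts with estimates on both sides of 0. Of the 210 transcripts of these genes, all listed as protein-coding in GENCODE release 29, 200 had a mean of at least 1 TPM and were fitted together with all 30266 such transcripts. At an unadjusted limma p under 0.05, 13 were higher and 10 lower, together 11.5% against 10.3% of all transcripts, of which 4.91% were higher and 5.38% lower. Limma with Benjamini-Hochberg adjustment called 0 of the 200 and 0.00330% of all transcripts tested, and the smallest adjusted p of a member was 0.0832. Transcripts on both sides of 0 passed the unadjusted threshold in 6 genes: NUP153, RANGAP1, AAAS, NUP37, SEH1L and KPNB1. The share of all genes with this pattern was not computed, so it is not known to be particular to these genes. Both AAAS transcripts, NUP153-202 and RANGAP1-001 passed it in the main fit and under each alternative run for them. Of 13 settings, the main fit included, RANGAP1-004 and NUP37-001 passed in 11 and NUP153-001 and KPNB1-001 in 10. NUP153-201 and NUP37-201 passed in 9 of them and SEH1L-002 in 8. SEH1L-005 passed in 11 of 12 and KPNB1-005 in 10 of 12. How reads were divided among overlapping transcripts is an estimate, and its error is not in these values.

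Most of the higher value of NUP214 came from 1 short transcript. NUP214-009 (ENST00000483497) was at 1.52 and 1.70 TPM under shControl and at 58.1 and 77.0 TPM under shPHF8, which is 0.623% of the gene's TPM under shControl and 18.6% under shPHF8. The groups lay far apart, with a log2 fold change of 4.70 ± 0.24 (SE) and a limma Benjamini-Hochberg adjusted p of 0.0832. In GENCODE this transcript has 11 exons and starts 64560 bases downstream of the full-length NUP214-001, and it has 2748 coding bases against 6270 in NUP214-001. Of these, 2696 are shared with NUP214-001, toward the end that encodes the FG repeats, and 52 are not. Another short transcript, NUP214-018, starts within 18 bases of it and was at 105 and 111 TPM against 131 and 123 TPM. Without NUP214-009 the gene stood at 257 ± 8.93 TPM under shControl and 296 ± 15.1 TPM under shPHF8 (SD, n = 2), 1.15 times the control mean. The full-length NUP214-001 and NUP214-010, which share 6237 coding bases, summed to 131 and 140 TPM under shControl and 160 and 142 TPM under shPHF8.

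**Figure D4:**
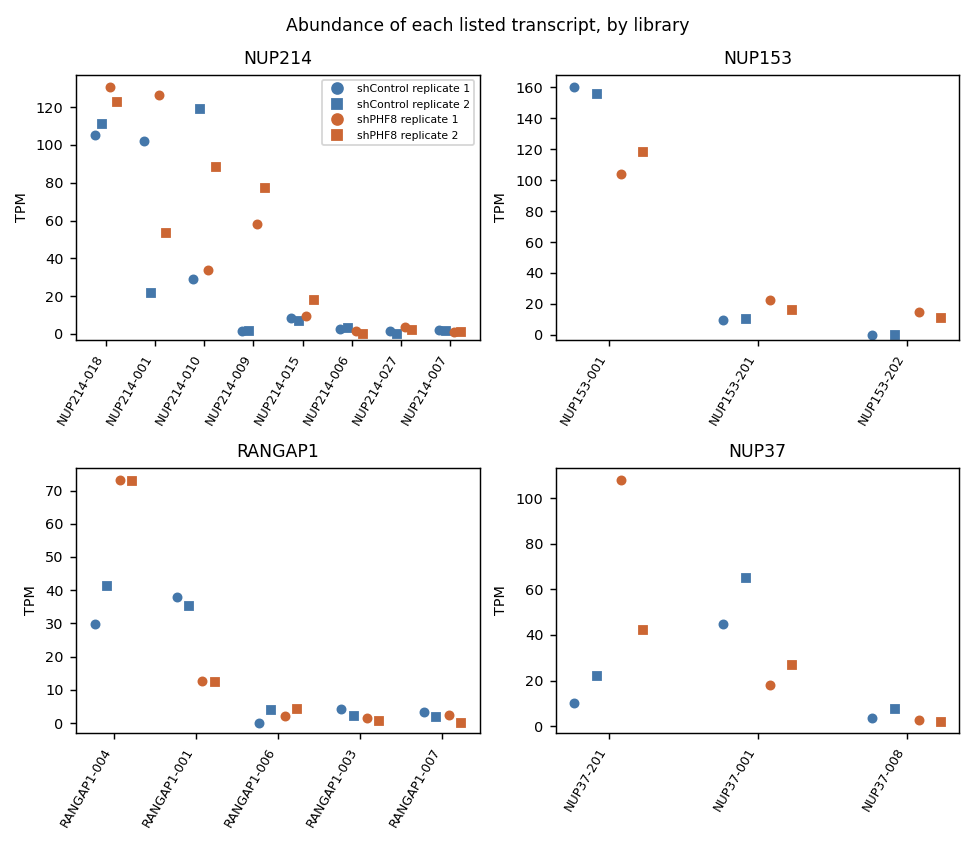
TPM (y axis) of each listed transcript of NUP214, NUP153, RANGAP1 and NUP37 in each library; circles are replicate 1 and squares replicate 2. NUP214-009 stands at 58.1 and 77.0 TPM in the shPHF8 libraries against under 2 TPM in controls, and RANGAP1-001 and NUP37-001 are lower under shPHF8 while RANGAP1-004 and NUP37-201 are higher, without overlap.

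In NUP153 the main transcript was lower and the other listed transcripts were higher. NUP153-001 (ENST00000262077) was at 160 and 156 TPM under shControl and 104 and 118 TPM under shPHF8, with a log2 fold change of -0.51 ± 0.10 (SE). NUP153-201 (ENST00000537253) was at 9.69 and 10.1 TPM against 22.3 and 16.2 TPM. NUP153-202 (ENST00000613258) was listed at 0 in both control libraries and at 14.8 and 10.98 TPM under shPHF8. No values overlapped in any of the 3, and NUP153-001 went from 94.1% to 77.5% of the gene's TPM. In GENCODE the last 2 share a start 447 bases upstream of that of NUP153-001. NUP153-202 lacks a coding exon that NUP153-001 and NUP153-201 hold, printed here because it separates the transcript listed at 0 in controls from the others, and its length keeps the reading frame.
NUP153 exon of 126 bases, GRCh38, chr6:17639939-17640064, minus strand: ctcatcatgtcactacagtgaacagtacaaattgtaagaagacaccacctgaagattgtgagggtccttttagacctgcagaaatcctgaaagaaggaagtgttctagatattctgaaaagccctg

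In RANGAP1 and NUP37 the transcripts with opposite estimates share all their coding bases. RANGAP1-001 (ENST00000356244) was at 38.0 and 35.2 TPM under shControl and 12.5 and 12.5 TPM under shPHF8, and RANGAP1-004 (ENST00000455915) was at 29.9 and 41.2 TPM against 73.2 and 72.7 TPM. Their log2 fold changes were -1.47 ± 0.16 and 1.03 ± 0.20 (SE), with limma unadjusted p of 0.0013 and 0.00929. The share of RANGAP1-004 in the gene's TPM was thus 44.2% ± 6.56 under shControl and 80.3% ± 0.664 under shPHF8 (SD, n = 2). Both have the same 1761 coding bases, and RANGAP1-001 starts 3737 bases upstream. NUP37-001 (ENST00000552283) was at 44.9 and 64.8 TPM against 18.1 and 26.9 TPM, and NUP37-201 (ENST00000251074) was at 10.3 and 21.9 TPM against 108 and 42.3 TPM. They share 978 coding bases, and NUP37-001 starts 1541 bases upstream. The spread of the gene sum of NUP37 under shPHF8 thus lay in NUP37-201.

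AAAS, the gene of triple A syndrome, had AAAS-002 at 3.86 and 5.27 TPM under shControl and 0.225 and 0.173 TPM under shPHF8, while AAAS-004 was listed at 0 in both controls and at 6.73 and 3.68 TPM under shPHF8. AAAS-002 lacks a coding exon of 99 bases that AAAS-001, the main transcript, holds, and AAAS-004 starts 3127 bases upstream of AAAS-001 and lacks 372 of its coding bases. TNPO3-003, which lacks an exon of 192 coding bases, was listed at 0 in both controls and at 4.82 and 3.94 TPM under shPHF8. SEH1L-005 was at 3.26 and 2.75 TPM against 0.157 and 0.330 TPM, and SEH1L-002 at 11.4 and 10.2 TPM against 16.1 and 22.6 TPM. KPNB1-001, the main transcript of that gene, was at 360 and 331 TPM against 426 and 417 TPM, with a log2 fold change of 0.29 ± 0.07 (SE). Its limma unadjusted p was 0.0150, and 0.224 without the trend. In shControl replicate 2, where it was at 331 TPM, KPNB1-007 held 23.4% of the gene's TPM. The gene sums of KPNB1 overlapped between the groups. KPNB1-005 was at 2.12 and 7.65 TPM against 0 and 0.259 TPM. KPNA3-001 carried nearly all of KPNA3, at 45.5 and 49.4 TPM against 28.3 and 29.6 TPM, IPO4-001 was at 3.03 and 7.83 TPM against 0.0325 and 0.0263 TPM, and CSE1L had 1 listed transcript.

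Other genes of nuclear transport and the envelope reached an unadjusted p under 0.05 in shares near that of all genes, and none of them passed after adjustment. Of 19 further pore and transport genes tested, 2 were higher and 3 lower at an unadjusted limma p under 0.05, or 26.3% against 22.0% of all genes, with a median log2 fold change of -0.02. The smallest p belonged to TMEM33, a membrane protein found at the endoplasmic reticulum and nuclear envelope, at 57.4 ± 0.832 TPM under shControl and 30.7 ± 5.62 TPM under shPHF8, and to SNUPN, the import adaptor of spliceosomal snRNPs, at 36.2 ± 0.0477 and 57.0 ± 6.57 TPM (SD, n = 2). Of 23 mRNA export genes 3 were higher and 2 lower, or 21.7%, with a median of 0.07. THOC7, a subunit of the THO complex, was at 136 ± 4.22 and 179 ± 13.2 TPM, and DDX19B, the export helicase that docks on NUP214, was at 25.2 ± 4.26 and 40.1 ± 0.841 TPM (SD, n = 2). Of 18 nuclear envelope and lamina genes 3 were higher and 2 lower, or 27.8%, with a median of 0.09. VPS4B, an ATPase that seals the envelope, was at 27.0 ± 0.418 and 14.3 ± 1.72 TPM, and SUN1, an inner membrane protein that binds pores, was at 63.1 ± 1.38 and 81.8 ± 1.95 TPM (SD, n = 2).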

How the data were processed

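RNA of 4 K562 libraries, 2 shControl and 2 shPHF8, was sequenced, and groups were taken from the titles. The authors deposited 1 table of 32551 transcripts whose headers give TPM for each library. A further set of 4 deposited columns has no stated unit, is a signal proportional to TPM within each library, and was not used for any result. The submitters' processing notes name StringTie 1.2.3, HISAT2 2.0.4 and build hg19. Annotation, strandedness and filters are not stated there. TPM keep no read numbers, so depth is unknown and no counting error can be given.

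TPM were summed per gene name, taken as log2(TPM + 1), and tested with limma 3.58.1 (mean-variance trend, two-sided, R 4.3.3) over 10972 genes whose mean reached 1 TPM, and likewise over transcripts, with Benjamini-Hochberg adjustment. The fit had 2 residual and 2.16 prior degrees of freedom. Fold changes on this scale understate those of low genes. An unadjusted p under 0.05 is given as a description. The step was tested on simulated data. Members and gene lists were chosen with earlier results of these data known. Genes described in full were those with an unadjusted p under 0.05 and the most abundant of each role; transcripts were the 6 of smallest p in each direction and those of genes with transcripts on both sides; in other lists the 2 genes of smallest p. Alternatives were another pseudocount (0.1), filters (none, 5 TPM), scalings (median-of-ratios, quantile, without the 50 highest genes), no trend, a replicate block and leaving out each library. RefSeq promoters (GRCh38.p14) and GENCODE 29 (GRCh38) were matched by identifier, symbol or transcript, and their coordinates are on another build than the files. Python 3.11.15, pandas 2.3.3 and matplotlib 3.10.9 were used.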

Additional observations from a re-analysis of the deposited data

How the results depend on the processing

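The members at an unadjusted limma p under 0.05 were 11 (6 higher, 5 lower). Without the trend they were 7 (3 higher), the replicate block left 8, and they were 4 to 15 when 1 library was left out, with 1 to 11 higher and 3 to 6 lower. Leaving out a library leaves 1 sample in its group, whose spread is taken from the other group. The share of all genes at an unadjusted p under 0.05 is given for the main fit only. It is therefore not known whether the changes in these counts, with the trend or block setting or with a library left out, are particular to the members. The members without overlap were 31, or 55.4% against 55.3% of all genes, and 30 to 32 under the alternatives with all 4 libraries. With 1 library left out, 1 value stands for its group, so the groups overlap less often for any gene. The counts were higher there, which says nothing about these genes in particular. The median log2 fold change of members was 0.08, and 0.0411 (without shControl replicate 2) to 0.0689 (without shControl replicate 1) when 1 library was left out. Under quantile normalization limma with Benjamini-Hochberg adjustment called 37 genes and 0 members, where TPM as deposited gave 0. Member transcripts at p under 0.05 were 23. Among the alternatives with all 4 libraries they were 16 with the replicate block to 31 with no filter on low values. More transcripts are fitted without the filter, and no share of all transcripts is given for these fits. The counts are therefore not comparable with the share in the main fit. With 1 library left out, the estimate of KPNB1 ran from -0.027 (without shControl replicate 1) to 0.235 (without shControl replicate 2), and that of NUP58 from -0.131 (without shControl replicate 1) to 0.092 (without shControl replicate 2), with 0.023 without shPHF8 replicate 1; the cause was not tested. PHF8 kept an unadjusted p under 0.05 under each alternative, with estimates from -1.94 to -1.70 and limma Benjamini-Hochberg adjusted p from 0.0597 to 0.275. The labels do not say that the numbers pair the libraries, and over all genes the deviations of same-numbered libraries had r = -0.03 (across genes, which are not independent replicates); single transcripts were not part of this check. Depth is unknown, so no limit from counting can be given.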

Other observations

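Some transcripts of these genes differed widely between libraries of the same group. By a rule chosen after the values were seen (over 4-fold within a group on TPM + 1, and at least 20 TPM in 1 of its libraries), 14 transcripts of 10 genes did so, 10 times in shControl and 6 times in shPHF8, 2 of them in both. NUP214-001 was at 102 and 21.5 TPM under shControl and at 126 and 53.6 TPM under shPHF8, and NUP214-010 at 28.9 and 119 TPM and at 33.6 and 88.3 TPM, while their sum stayed between 131 and 160 TPM. KPNB1-007 was at 106 TPM in shControl replicate 2 and between 2.35 and 21.4 TPM elsewhere. TNPO3-201 was at 63.1 TPM in shControl replicate 2 and at most 1.26 TPM elsewhere. KPNA2-002, which has the same coding bases as KPNA2-001, was at 61.9 TPM in shPHF8 replicate 2 and under 1 TPM elsewhere, and KPNA2-001 was at 143 TPM in that library against 216 TPM in shPHF8 replicate 1. NUP85-004 was at 26.3 and 44.7 TPM in the libraries numbered 1 and listed at 0 in those numbered 2. IPO11-002 was listed at 0 in the libraries numbered 1 and at 14.5 and 41.0 TPM in those numbered 2.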
